A study of Mus musculus with 8 samples.

Results

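Homeobox genes encode transcription factors that bind DNA through a homeodomain, and 49 of them were examined in primary mouse oligodendrocyte progenitors that had lost the histone methyltransferases Ehmt1 and Ehmt2. Members were the genes of a fixed list of 52 names plus every gene symbol of the Hox A, B, C or D clusters in the deposited table, chosen by name, with earlier results of these data known. Of the 24155 genes in the table, 44 listed names and 5 Hox genes were found. Dlx5, Dlx6, Nkx2-9, Nkx6-1, Isl1, Lhx6, Lhx8 and Lhx9 were not analysed here. After a filter on low counts 38 members were tested, and the other 11 are described by their counts.

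Polyadenylated RNA was sequenced from 8 cultures, 4 in the cKO group and 4 in the control group. All cells came from male and female pups at postnatal day 7 in which both Ehmt1 and Ehmt2 were flanked by loxP sites (Ehmt1fl/fl;Ehmt2fl/fl), so the controls carried the floxed alleles too. Progenitors, the dividing glia that give rise to myelin-forming oligodendrocytes, were captured by immunopanning on antibody-coated dishes and grown in SATO medium to which 10 ng/mL of PDGF-AA and 20 ng/mL of bFGF had been added. cKO cultures received an adenovirus coding for red fluorescent protein and Cre recombinase (Ad-RFP-iCre), and control cultures an adenovirus coding for the fluorescent protein alone (Ad-RFP), each at an MOI (infectious particles added per cell) of 10 during 6 hours of exposure, and RNA was collected 72 hours after infection. No source used here names the promoter that drives Cre. Each of the batches 1, 3, 4 and 6 holds 1 cKO and 1 control library, and nothing in the labels says that batches came from separate animals, so the p-values measure the spread between these pairs of libraries, which may be partly technical.

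In the embryo, homeobox genes give cells their address. Hox genes mark position from hindbrain to tail, while Emx, Otx, Dlx, Gsx, Lhx2, En and Gbx2 genes pattern the forebrain, midbrain and anterior hindbrain, and Dbx, Nkx6, Irx, Pou4f1 and Lmx1b genes mark zones of the neural tube. TALE class proteins (Pbx and Meis) bind DNA together with Hox and other homeodomain proteins, and the Iroquois (Irx) genes belong to the same class. Ehmt1 (GLP) and Ehmt2 (G9a) place methyl groups on lysine 9 of histone H3, a mark of repressed genes. POU class genes such as Pou3f1 and Pou3f2 are also known from glia, in which Pou3f1 acts in the onset of myelination by Schwann cells.

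Promoters of Irx2 and Lhx2, which both fell in cKO, are shown because of where their RefSeq windows lie. These windows of 250 bases upstream of the start (build GRCm38.p6) end at the base before the gene in the deposited table. Neither overlaps another gene tested here, the nearest being Gm20554, 255 bases from Irx2, and Dennd1a, 51890 bases from Lhx2. The windows cover chr13:72628570-72628819 (plus strand) for Irx2 and chr2:38339031-38339280 (plus strand) for Lhx2. Each is written 5′ to 3′ on the strand of the gene with CG dinucleotides in capitals.
Irx2: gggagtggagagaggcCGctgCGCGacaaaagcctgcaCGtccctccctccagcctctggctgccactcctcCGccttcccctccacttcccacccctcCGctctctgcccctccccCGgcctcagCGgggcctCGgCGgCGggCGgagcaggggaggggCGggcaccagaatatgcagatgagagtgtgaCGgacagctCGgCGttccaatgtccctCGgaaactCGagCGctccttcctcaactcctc
Lhx2: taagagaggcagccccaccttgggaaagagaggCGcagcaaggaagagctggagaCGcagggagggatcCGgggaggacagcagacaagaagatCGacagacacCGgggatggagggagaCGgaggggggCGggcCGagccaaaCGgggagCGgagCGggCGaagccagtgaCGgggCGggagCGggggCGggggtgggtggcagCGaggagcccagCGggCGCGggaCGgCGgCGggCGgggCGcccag
The Irx2 window held 19 CG dinucleotides and the Lhx2 window shown 25, against a median of 6 over the 32851 promoter windows of the RefSeq table. Another Lhx2 window, not shown, held 24. Over the 48 windows of the 37 members that matched by symbol, the median was 16. Neither window shown held the sequence TAATTA, a core that many homeodomains bind and which reads the same on both strands. It occurred in 4.84% of all windows and in 6.25% of the members' windows. A match of letters is a description and not a binding site.

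Both targeted genes fell, which checks the labels. Ehmt1 (chromosome 2, 24789928 to 24919614, minus strand, mm10) was at 36.1, 41.9, 42.4 and 45.7 CPM (the count relative to the library's TMM-scaled total) in cKO batches 1, 3, 4 and 6, against 88.8, 100, 93.1 and 100 CPM in control batches 1, 3, 4 and 6. Ehmt2 (chromosome 17, 34898469 to 34914052, plus strand) was at 51.7, 55.5, 64.5 and 62.0 CPM in cKO and 154, 178, 196 and 181 CPM in control, with batches in the same order here and below. The fitted levels in cKO were 43.4% of control for Ehmt1 and 32.9% for Ehmt2. Counts cover whole genes, so reads of exons outside the floxed segments still count. Library totals ran from 43542742 to 65374488 estimated counts, and no library went against its label.

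Among the 38 members tested, 1 rose and 11 fell in cKO. A gene is said to rise or fall where edgeR's quasi-likelihood test, with batch as a block (4 pairs), gave an adjusted p under 0.05 by Benjamini-Hochberg over all 18102 genes. Each log2 fold change is cKO over control, with its SE from the same fit. The gene that rose was Barx2, and those that fell were Irx1, Irx2, Irx3, Otx1, Pou3f1, Pbx3, Lhx2, Emx2, Pbx2, Meis2 and Pou6f1. Over all genes tested 10.0% rose and 10.4% fell. The share of the members that fell was 28.9%, and the share that rose was 2.63%. The median log2 fold change was -0.13 over the members tested and -0.01 over all genes tested, and the sign was negative in 30 of 38 members against 51.7% of all genes.

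All 12 moved the same way in 4 of 4 pairs, a property that passing a fit on pairs favours. Barx2 was the only member changed by at least 2-fold among those past the threshold, which 2.13% of all genes did upward and 0.215% downward. In 3 members, Barx2, Irx1 and Irx3, the 4 cKO values lay wholly apart from the 4 control values, as they did in 3.68% of all genes tested. The share of genes that fell differed by level, and 24.7% of genes over 100 CPM in control fell, against 0.675% of genes under 1 CPM. Among members at 10 to 100 CPM in control 6 of 16 fell, against 14.1% of all genes at that level, and at 1 to 10 CPM 3 of 8 fell, against 4.71%. Over 100 CPM 2 of 5 members fell, and of the 9 members under 1 CPM edgeR called 0, with 1 at an unadjusted p under 0.05.

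These calls rest on the pairing. Without the batch block, edgeR called 0 members and 3 genes in all, with 4 members at an unadjusted p under 0.05 and a lowest adjusted p of 0.11 (Barx2). Without batch 3 or without batch 4, 5 members fell rather than 11.

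**Figure D1:**
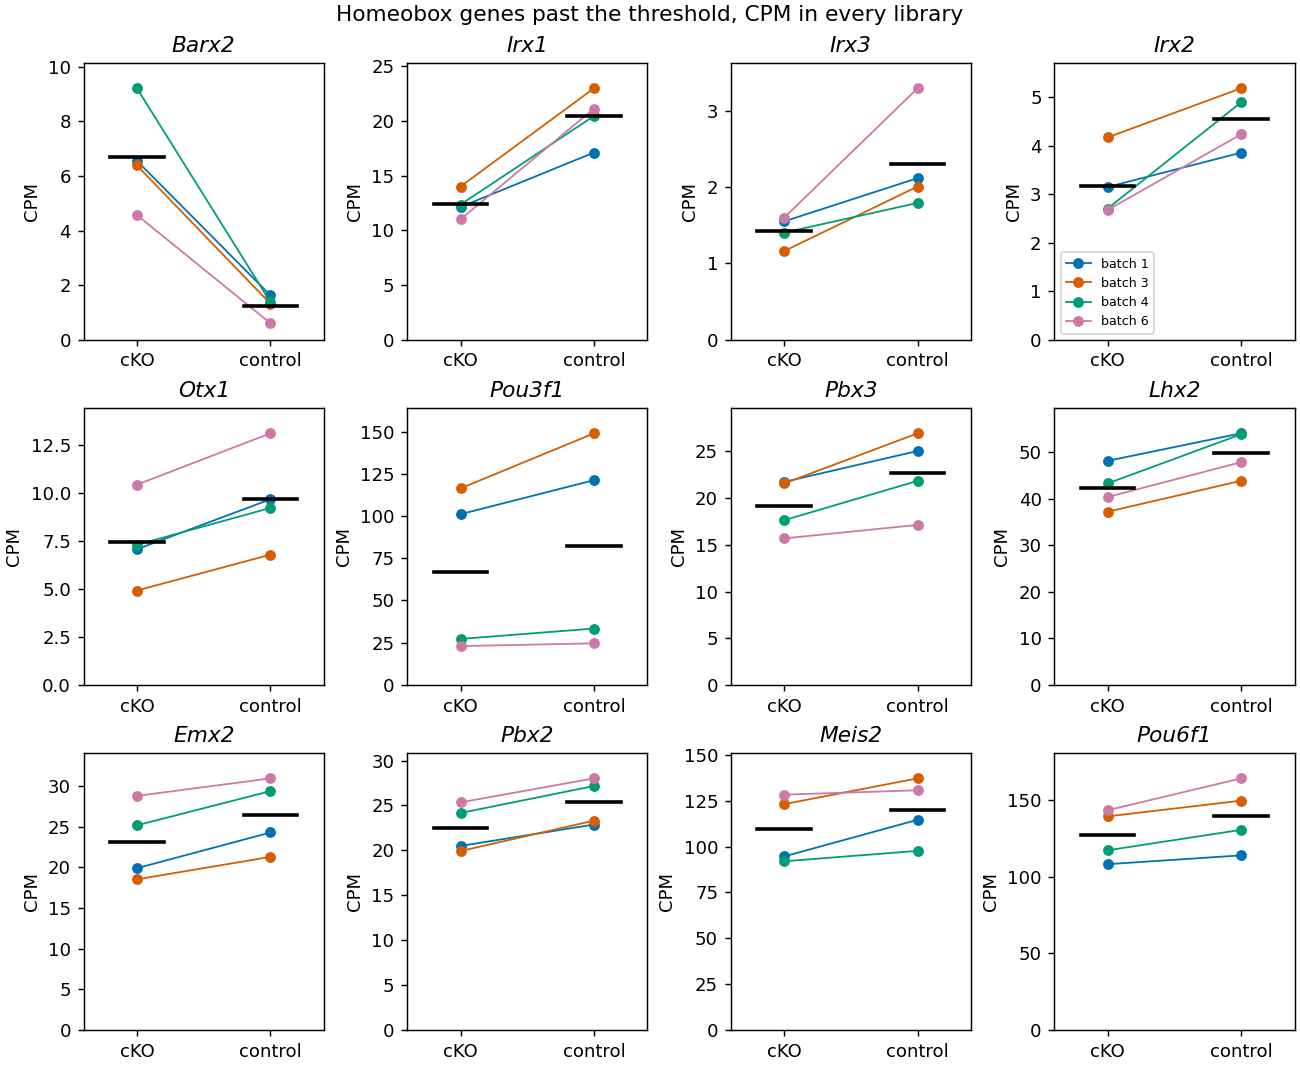
CPM of the 12 homeobox genes past the threshold in each of the 8 libraries (vertical axis, from 0), with cKO left and control right, lines joining the 2 libraries of a batch and black bars at the group means. Every line of Barx2 is higher at its cKO end, every line of the other 11 genes is lower there, and the batches of Pou3f1 lie far apart, with batches 1 and 3 at 101 and 116 CPM in cKO.

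Barx2, an NK-like gene known for roles in muscle, hair follicle and cell adhesion, had the largest change of any member tested. It lies on chromosome 9 from 31846044 to 31913462 on the minus strand. Its level was 6.55, 6.39, 9.21 and 4.57 CPM in cKO, against 1.63, 1.32, 1.38 and 0.606 CPM in control. The lowest cKO library stood above the highest control library. Barx2 averaged 6.68 ± 1.91 CPM in cKO and 1.23 ± 0.439 CPM in control (SD, n = 4 each), a log2 fold change of 2.45 ± 0.15 with an edgeR adjusted p of 8.0e-06, or 547% of the control level. Per kb of exon this is 3.39 CPM in cKO and 0.627 CPM in control, so that in cKO it remained below Lhx2 (9.63 CPM per kb) and Emx2 (7.70 CPM per kb). None of the 4 genes tested within 500000 bases of Barx2 passed the threshold in edgeR, where 1 of them, Nfrkb (log2 fold change -0.11 ± 0.04), had an unadjusted p under 0.05. Its paralogue Barx1 had 8, 2, 2 and 2 counts in cKO and 1, 5, 5 and 10 counts in control and was not tested.

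Of 4 listed Iroquois genes, 3 fell in cKO, where 10.4% of all genes tested fell. Mammals carry these genes in a pair of clusters, and in the neural tube they help to set the boundaries between domains. Irx1 and Irx2 lie on chromosome 13 (71957921 to 71963723, minus strand, and 72628820 to 72634198, plus strand), and Irx3 and Irx5 on chromosome 8 (91798525 to 91802067, minus strand, and 92357625 to 92376286, plus strand). Irx1 was at 12.1, 14, 12.4 and 11 CPM in cKO, against 17.1, 23, 20.5 and 21.1 CPM in control. All cKO values lay below all control values, and the means were 12.4 ± 1.24 CPM in cKO and 20.4 ± 2.45 CPM in control (SD, n = 4 each). The log2 fold change was -0.72 ± 0.07, with an edgeR adjusted p of 0.00013.

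Irx2 was at 3.15, 4.18, 2.71 and 2.68 CPM in cKO and 3.86, 5.19, 4.90 and 4.24 CPM in control. Its groups overlapped, because cKO batch 3 lay above control batch 1, although each cKO library lay below its own control. The log2 fold change of Irx2 was -0.53 ± 0.12 (edgeR adjusted p = 0.0117), and without batch 4 the adjusted p was 0.0726. Irx3 was at 1.55, 1.16, 1.4 and 1.6 CPM in cKO and 2.12, 2.01, 1.79 and 3.29 CPM in control, with no overlap between the groups. Its log2 fold change was -0.67 ± 0.16 (edgeR adjusted p = 0.0149), which became 0.0632 without batch 3 and 0.0668 without batch 6. Irx5, the least abundant of the 4 per length at 0.156 CPM per kb in cKO and 0.195 CPM per kb in control, did not pass (log2 fold change -0.29 ± 0.24, edgeR adjusted p = 0.433).

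Within 500000 bases of Irx1 or Irx2, the 2 other genes tested, Gm20554 and Rpl9-ps4, did not pass with edgeR, and Rpl9-ps4 (log2 fold change 0.12 ± 0.04) had an unadjusted p under 0.05. Of 5 genes tested within 500000 bases of Irx3, 1 rose and 1 fell, where 20.5% of all genes were called either way. Fto, an RNA demethylase gene, fell to 147 CPM in cKO, against 160 CPM in control (log2 fold change -0.12 ± 0.03). The ciliary gene Rpgrip1l rose to 17.3 CPM in cKO, against 15.1 CPM in control (0.19 ± 0.06). The neighbours 4831440D22Rik, Gm36325 and Gm45428 did not pass. Within the same distance of Emx2, 1 of 8 genes tested rose and 1 fell, and near Lhx2 1 of 5 rose and 1 fell. Near Pbx3 1 of 10 fell, near Pou3f1 2 of 19 rose, and near Pou6f1 2 of 18 rose and 1 fell. Near Pbx2 (chromosome 17, 34591266 to 34597400, plus strand) 4 of 44 fell and 0 rose. These 4 included the targeted gene Ehmt2, 301068 bases from Pbx2. Whether the targeting of Ehmt2 bears on Pbx2 was not tested. Irx3 shares 124 exonic bases with the antisense gene Irx3os, which averaged 0.0222 CPM in cKO and 0.122 CPM in control and was not tested. The sources used here do not say whether counting was strand-specific.

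**Figure D2:**
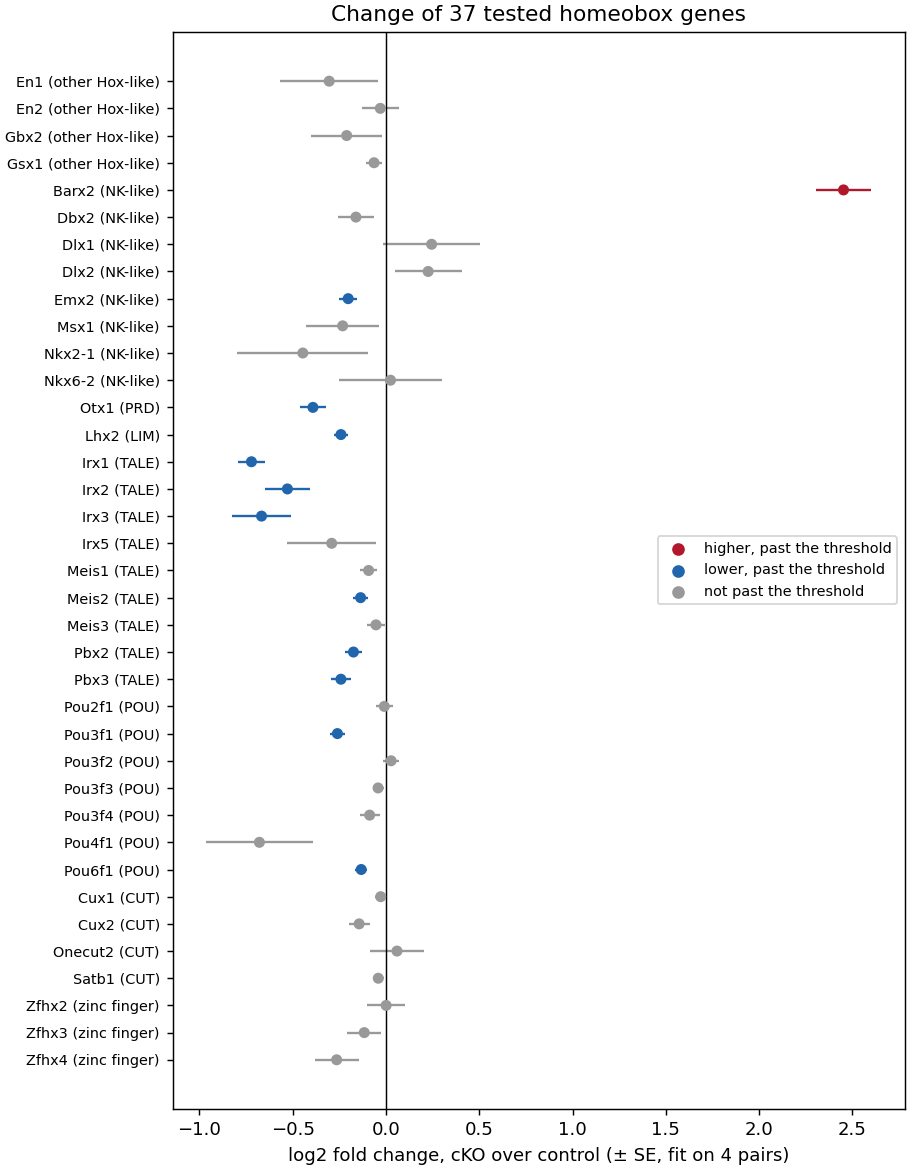
Log2 fold change of cKO over control with its SE (horizontal axis) for 37 of the 38 homeobox genes tested, grouped by class, from the fit on 4 pairs. Barx2 stands alone to the right at 2.45, and the lowest changes past the threshold are those of Irx1 (-0.72), Irx3 (-0.67) and Irx2 (-0.53).

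Of the 5 listed Pbx and Meis genes, which are TALE cofactors, 3 fell. Pbx2 was at 20.5, 19.9, 24.2 and 25.3 CPM in cKO, against 22.9, 23.3, 27.2 and 28.0 CPM in control. Its log2 fold change was -0.17 ± 0.04 (edgeR adjusted p = 0.0193). Pbx3 was at 21.7, 21.6, 17.6 and 15.7 CPM in cKO and 25.1, 26.9, 21.9 and 17.1 CPM in control. In both genes the groups overlapped while all 4 pairs were lower in cKO, and Pbx3 had a log2 fold change of -0.24 ± 0.05 (edgeR adjusted p = 0.00885). Meis2, the most abundant TALE member with 94.7, 123, 92.0 and 128 CPM in cKO and 115, 137, 97.7 and 131 CPM in control, had a change of -0.14 ± 0.04 with an edgeR adjusted p of 0.038. The call of Meis2 held in 7 of 12 settings with the block. Its change was -0.09 without batch 1 (edgeR adjusted p = 0.168), and DESeq2 with the same block gave an adjusted p of 0.0528. Meis1 (-0.09 ± 0.04) and Meis3 (-0.05 ± 0.05) did not pass. In all, 6 of 9 listed TALE genes fell (66.7%, against 10.4% of all genes tested). Pbx2 shares 227 exonic bases on the same strand with Gpsm3, an immune-cell gene that averaged 0.133 CPM in cKO and 0.205 CPM in control.

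Among forebrain patterning genes, Otx1, Lhx2 and Emx2 fell. Otx1, a head and cortex gene of the PRD class (chromosome 11, 21994764 to 22002897, minus strand), was at 7.06, 4.91, 7.30 and 10.4 CPM in cKO and 9.67, 6.78, 9.21 and 13.1 CPM in control. The batches differed more than the groups, with batch 3 lowest and batch 6 highest in both, and every pair was lower in cKO. The log2 fold change of Otx1 was -0.39 ± 0.07, with an edgeR adjusted p of 0.00372. Lhx2, a LIM class gene of cortex and eye, was at 48.2, 37.3, 43.3 and 40.4 CPM in cKO, against 54.1, 43.9, 53.9 and 47.9 CPM in control, a change of -0.24 ± 0.04 (edgeR adjusted p = 0.00189). Only cKO batch 1 reached the range of the controls.

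Emx2, a gene of the dorsal forebrain (chromosome 19, 59458372 to 59465357, plus strand), was at 19.9, 18.5, 25.2 and 28.8 CPM in cKO and 24.3, 21.3, 29.4 and 31.0 CPM in control. Its change was -0.20 ± 0.05 with an edgeR adjusted p of 0.0133, and the adjusted p was 0.0672, 0.0545 and 0.0758 without batches 1, 3 and 4. Emx2 shares 264 exonic bases with the antisense gene Emx2os, which averaged 5.27 CPM in cKO and 5.19 CPM in control and did not pass (log2 fold change 0.02 ± 0.09). The ventral forebrain genes did not pass. Gsx1, which with its paralogue Gsx2 marks progenitors of the ganglionic eminence, was abundant at 65.7, 78.2, 32.8 and 30.3 CPM in cKO and 63.4, 81.7, 34.7 and 34.2 CPM in control. Batches 1 and 3 were high in both groups, and the change was -0.06 ± 0.04. Dlx1 (0.24 ± 0.26) and Dlx2 (0.23 ± 0.18), which act in interneuron development, were under 2 CPM in every library. Nkx2-1, which marks the medial ganglionic eminence, averaged 0.265 CPM in cKO and 0.355 CPM in control (-0.45 ± 0.35).

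Of the 7 POU class genes on the list, 2 fell (28.6%, against 10.4% of all genes tested), while Pou2f2, a POU class gene outside it, rose. Of all genes at 10 to 100 CPM in control, as Pou3f1 was, 14.1% fell. Of those over 100 CPM, as Pou6f1 was, 24.7% fell. Pou3f1 (chromosome 4, 124656807 to 124660655, plus strand) was at 101, 116, 27.2 and 23.0 CPM in cKO, against 121, 149, 33.4 and 24.6 CPM in control. Batches 1 and 3 lay far above batches 4 and 6 in both groups, and the means were 66.9 ± 48.7 CPM in cKO and 82.1 ± 62.4 CPM in control (SD, n = 4 each), while all 4 pairs were lower in cKO. Pou3f1 shares 330 exonic bases with the antisense gene Gm2164, not analysed here. Its log2 fold change was -0.26 ± 0.04 (edgeR adjusted p = 0.00215). Pou6f1 was at 108, 139, 117 and 143 CPM in cKO and 114, 150, 131 and 164 CPM in control, the smallest change past the threshold at -0.13 ± 0.03 (edgeR adjusted p = 0.0146, and 0.0528 and 0.104 without batch 3 and batch 4).

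The brain POU genes related to Pou3f1 did not pass. Pou3f3, the most abundant member on both the CPM and the per-length scale, was at 285, 316, 213 and 303 CPM in cKO and 303, 315, 224 and 305 CPM in control, a change of -0.04 ± 0.03. The deposited coordinates of Pou3f3 differ from those of the annotation that gave its exon length, so its per-length rank is less certain. Pou3f2 (0.03 ± 0.04) and Pou3f4 (-0.09 ± 0.05) also lay near 0. The ubiquitous octamer-binding gene Pou2f1 averaged 40.0 ± 4.45 CPM in cKO and 40.1 ± 1.78 CPM in control (SD, n = 4 each), and it shares 3007 exonic bases with Cd247 on the other strand. Pou4f1, a gene of sensory neurons, averaged 0.449 CPM in cKO and 0.698 CPM in control (-0.68 ± 0.29, edgeR adjusted p = 0.122), and all 4 pairs were lower in cKO.

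The Hox genes Hoxa2, Hoxa5, Hoxb2 and Hoxc13 were close to the detection limit in both groups and were not tested. Hoxa2, a hindbrain gene on chromosome 6, had 0, 2, 5 and 5 counts in cKO and 4, 8, 1 and 3 in control. Hoxa5, a gene of the neck and upper spinal cord, had 4, 0, 1 and 0 counts in cKO and 9, 8, 6 and 2 in control, so that every cKO library held fewer counts than its own control.

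Hoxb2, on chromosome 11, had 3, 3, 1 and 2 counts in cKO and 0, 3, 2 and 3 in control. Hoxc13, a hair and nail gene on chromosome 15, was seen only in batch 1, with 3 counts in cKO and 8 in control. A library with 0 counts allows a level of up to 0.0484 to 0.0670 CPM in cKO and 0.0476 to 0.0588 CPM in control (3 counts per library, counting error only). Hox genes of the D cluster were not analysed here.

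**Figure D3:**
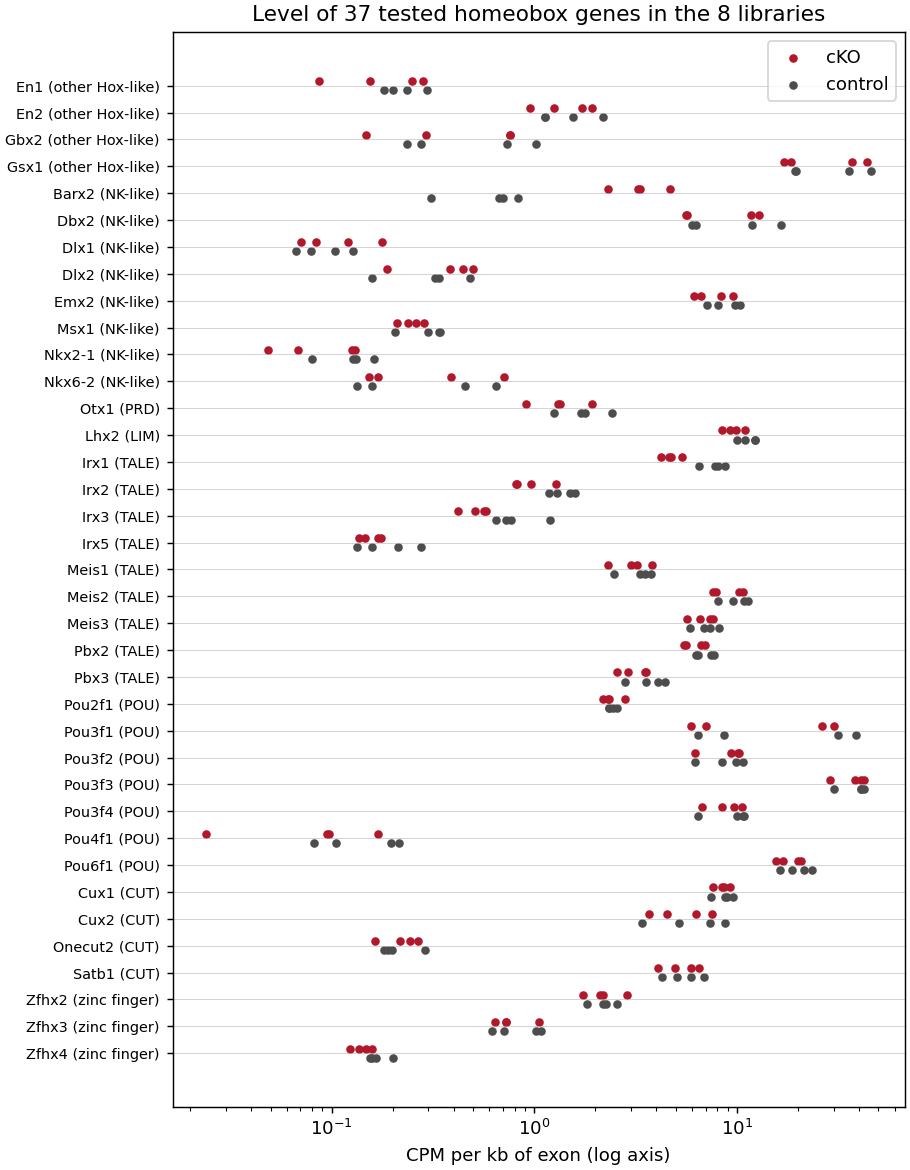
Level of 37 of the 38 homeobox genes tested in each library, as CPM per kb of exon (horizontal log axis), with cKO points above control points in each row. Pou3f3 and Gsx1 reach the highest levels, Dlx1, Nkx2-1 and Pou4f1 lie at the low end, and only Barx2, Irx1 and Irx3 have groups that do not overlap.

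The remaining genes of neural-tube and boundary patterning did not pass. Dbx2, a gene of the intermediate neural tube, was at 40.7, 19.7, 19.5 and 44.7 CPM in cKO and 57.4, 21.9, 20.7 and 41.4 CPM in control (log2 fold change -0.16 ± 0.10). Batches 1 and 6 were high in both groups. En1 (-0.30 ± 0.26) and En2 (-0.03 ± 0.10), of the midbrain and cerebellum, and Gbx2 (-0.21 ± 0.19), of the anterior hindbrain, also did not pass, nor did Msx1 (-0.23 ± 0.20), a target of BMP signals. Nkx6-2, known from myelinating oligodendrocytes, was at 0.740, 0.290, 1.34 and 0.323 CPM in cKO and 1.24, 0.253, 0.872 and 0.303 CPM in control, with no common direction over the pairs (0.02 ± 0.28). Shared reads cannot be told apart where Gbx2 overlaps D130058E05Rik, Nkx6-2 overlaps Inpp5a, Dlx1 overlaps Dlx1as and Meis1 overlaps Gm37818 in their exons.

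None of the 7 CUT and zinc-finger class genes on the list had a call with edgeR, where 20.5% of all genes had one. Zinc-finger homeobox genes outside the list fell or did not pass, with Adnp, Adnp2, Zhx2, Zhx3, Zeb1 and Tshz1 lower. Zhx1, Zeb2, Tshz2, Tshz3 and Homez did not pass, and Zeb2 (0.04 ± 0.03) and Tshz3 (0.03 ± 0.05) had a positive sign. Among the 7 listed genes, Cux2 and Zfhx4 had an unadjusted p under 0.05, and neither DESeq2 nor limma-voom with the block called any of them. Cux1, which is made in most cells, was at 152, 173, 169 and 186 CPM in cKO and 149, 175, 178 and 191 CPM in control (log2 fold change -0.03 ± 0.03). Satb1, a chromatin organiser, averaged 102 ± 20.3 CPM in cKO and 105 ± 21.0 CPM in control (SD, n = 4 each). Cux2, of upper-layer neurons, was lower in cKO in batches 3, 4 and 6 and higher in batch 1 (-0.14 ± 0.06, edgeR adjusted p = 0.104), and passed with edgeR when batch 1 was left out. Onecut2 had a change of 0.06 ± 0.14. Zfhx2 was at 31.7, 39.6, 51.8 and 38.5 CPM in cKO and 33.0, 46.6, 39.8 and 41.2 CPM in control, higher in cKO in batch 4 alone (0.00 ± 0.10). Zfhx3 (-0.12 ± 0.09) and Zfhx4 (-0.26 ± 0.12), large zinc-finger homeodomain proteins, had adjusted p-values of 0.413 and 0.143 in edgeR. Zfhx2 shares 3255 exonic bases with the antisense gene Zfhx2os.

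Low counts kept 11 members out of the test. Besides the 4 Hox genes these were Gsx2, Lmx1a, Lmx1b, Barx1, Emx1, Msx2 and Otx2. The dopaminergic and roof-plate gene Lmx1a had counts only in batches 4 and 6, with 2 and 6 in cKO and 1 and 11 in control. Otx2, a gene of the early forebrain and midbrain, had the most of them, at 16, 1, 10 and 8 counts in cKO and 20, 7, 7 and 8 in control, and its groups overlapped.

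Levels differed between members far more than between groups. Per kb of exon, Pou3f3 averaged 37.7 CPM in cKO and 38.7 CPM in control, and Gsx1 29.2 CPM in cKO and 30.2 CPM in control. Below them came Pou3f1 (17.4 CPM per kb in cKO, 21.3 in control), Pou6f1 (18.3 in cKO, 20.1 in control) and Lhx2 (9.63 in cKO, 11.4 in control). These orders by mean are not firm, since Pou3f1 spread from 23.0 to 116 CPM over the cKO libraries alone. The summed level of the 49 members was 1352, 1481, 1227 and 1445 CPM in cKO and 1459, 1607, 1302 and 1522 CPM in control, lower in cKO in every pair.

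In most members the extreme libraries of 1 group lay further apart than the fitted levels of the groups. In 35 of 38 members the ratio of the highest to the lowest control library exceeded the fold change between groups, the exceptions being Barx2, Irx1 and Irx2. A ratio of extremes and a fitted change are unlike measures, and the share over all genes was not computed. The count therefore does not set the members apart from other genes. The ratio of the highest to the lowest library for Pou3f1 was 5.07 in cKO and 6.05 in control. It was 4.63 in cKO and 4.88 in control for Nkx6-2, 5.13 in cKO and 4.35 in control for Gbx2, and 2.58 in cKO and 2.39 in control for Gsx1. The batch with the highest level was the same in both groups for 24 members.

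**Figure D4:**
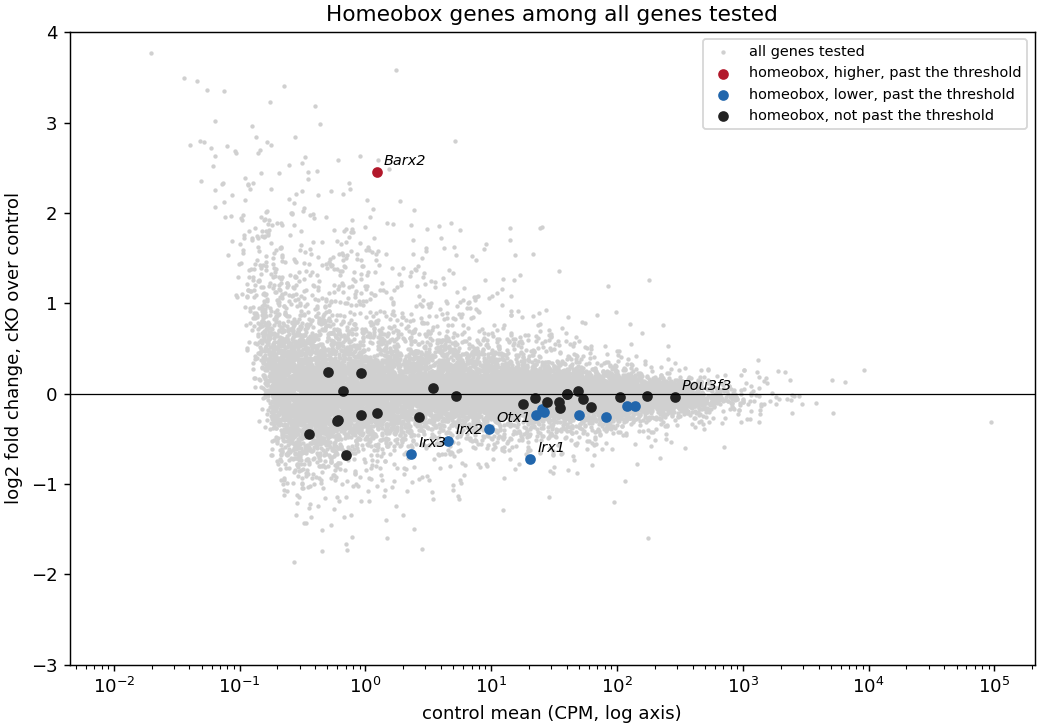
Log2 fold change of cKO over control (vertical axis) against the control mean in CPM (horizontal log axis) for all 18102 genes tested in grey and 37 of the 38 homeobox genes tested in colour or black, with 4 grey genes beyond the axis limits. Barx2 lies among the genes that rose at a low control level, and the members that fell run from 2.30 CPM in control for Irx3 to 140 CPM for Pou6f1.

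Homeobox genes outside the list were counted in the same fit. Of 36 tested, 1 rose and 13 fell (2.78% and 36.1%, against 10.0% and 10.4% of all genes), with a median log2 fold change of -0.12. Shares at matched levels were not computed for them. Pou2f2, an octamer-binding gene best known from B cells, rose to 7.44 ± 1.08 CPM in cKO, against 5.91 ± 1.62 CPM in control (SD, n = 4 each; 0.35 ± 0.09, edgeR adjusted p = 0.02). Of those at 1 CPM or more in a group, the largest falls were in Six5 (1.49 CPM in cKO, 2.84 CPM in control, -0.92 ± 0.15), Adnp2 (32.6 CPM in cKO, 44.1 CPM in control, -0.44 ± 0.04) and Tgif2 (24.7 CPM in cKO, 33.0 CPM in control, -0.43 ± 0.11). Pknox2, another TALE class gene, fell by 0.16 on the log2 scale. Nkx2-2, a homeobox gene of the oligodendrocyte lineage, averaged 168 ± 106 CPM in cKO and 186 ± 123 CPM in control (SD, n = 4 each) and did not pass (-0.12 ± 0.04, edgeR adjusted p = 0.0818).

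Among 43 Polycomb and trithorax genes, which keep Hox and other developmental genes off or on, 1 rose and 7 fell (2.33% and 16.3%, against 10.0% and 10.4% of all genes). The share that fell was near the 14.1% of all genes at 10 to 100 CPM and below the 24.7% of genes over 100 CPM. Rybp, a subunit of Polycomb complex PRC1, rose by 0.16 ± 0.03. Men1, a partner of the trithorax methyltransferases, fell by 0.16 on the log2 scale (78.9 CPM in cKO, 88.4 CPM in control), and so did Jarid2, Phf1, Phf19, Aebp2, Ring1 and Phc1. The median log2 fold change of that list was -0.04.

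Some markers of cell identity also changed. Over all genes tested 10.0% rose and 10.4% fell, and of those over 100 CPM in control 24.7% fell. Of the markers tested, 50% for oligodendrocytes and 57.1% for neurons rose, and 33.3% for progenitors fell. For astrocytes 28.6% rose and 28.6% fell, and each of these lists held few genes. The summed level of 6 progenitor markers was 7530, 8257, 6542 and 8557 CPM in cKO and 8296, 9457, 6915 and 8888 CPM in control, lower in cKO in every pair, and 2 of 6 fell, with Pdgfra at 773 CPM in cKO and 969 CPM in control. That of 6 oligodendrocyte markers was 760, 309, 2987 and 1208 CPM in cKO and 543, 249, 1942 and 1124 CPM in control. This sum was higher in cKO in every pair, and 3 of 6 markers rose. The sums over 9 neuron markers ran from 57.0 to 83.9 CPM in cKO and from 32.6 to 72.5 CPM in control, higher in cKO in every pair, and 4 of 7 tested rose. Among them was Snap25 at 19.9 CPM in cKO and 7.01 CPM in control, while the values that did not pass or were not tested included Rbfox3 at 1.20 CPM in cKO and 1.56 CPM in control, and the transporter gene Slc17a7 at 0.145 CPM in cKO and 0.190 CPM in control. Those over 7 astrocyte markers ran from 879 to 2442 CPM in cKO and from 885 to 2600 CPM in control, with 2 of 7 higher and 2 lower. Sums stayed under 12 CPM in every library for microglial (2 genes in the table), endothelial (4 genes) and mesenchymal markers (6 genes), of which 1 of 1, 0 of 3 (1 at an unadjusted p under 0.05) and 2 of 5 tested rose with edgeR. The part that such shifts have in the homeobox values was not tested, and in bulk RNA fewer cells of a type and less RNA per cell cannot be told apart. Mitochondrially encoded genes took 3.63%, 3%, 3.17% and 3.46% of counts in cKO and 3.24%, 2.42%, 2.57% and 2.95% in control, higher in cKO in every pair. The ribosomal RNA gene CT010467.1 took 6.61%, 7.53%, 7.41% and 9.13% of counts in cKO and 9.04%, 7.91%, 10.1% and 9.67% in control, lower in cKO in every pair.

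Leaving out each batch in turn left Barx2, Irx1, Otx1, Lhx2 and Pou3f1 past the threshold every time. Their lowest and highest log2 fold changes in those fits were 2.35 and 2.62 for Barx2, -0.79 and -0.65 for Irx1, -0.42 and -0.37 for Otx1, -0.27 and -0.21 for Lhx2, and -0.31 and -0.22 for Pou3f1. Irx2, Irx3, Pbx2, Pbx3, Emx2, Meis2 and Pou6f1 each lost the call in at least 1 such fit and kept the negative sign in all 4.

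**Figure D5:**
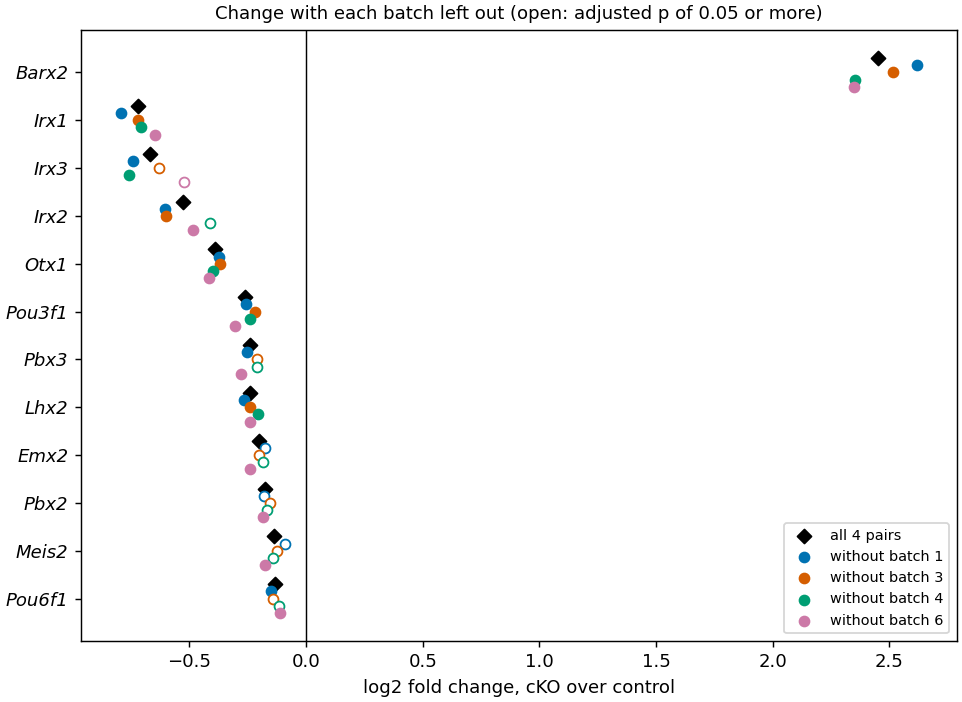
Log2 fold change of cKO over control (horizontal axis) for the 12 homeobox genes past the threshold, with all 4 pairs (black diamonds) and without each batch (circles), open where the adjusted p was 0.05 or more. Barx2 stays between 2.35 and 2.62, and all points of the 11 lower genes stay below 0.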

How the data were processed

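Per the submitters' processing notes, reads were handled with cutadapt, STAR and Partek on mm10. No source used here gives versions, annotation or strand setting. The authors deposited estimated counts per gene, which the unequal library totals show were not scaled to depth. Of their values 51.6% are not whole, and how reads matching several genes were divided is not stated. Columns were matched by batch name, and gene ends are given as the last base. Counts were rounded, genes were filtered by filterByExpr (minimum count 10; 18102 of 24155 kept), scaled by TMM and tested 2-sided with edgeR 4.0.16 (glmQLFit robust, R 4.3.3) on batch and group, with Benjamini-Hochberg adjustment at a threshold of 0.05. SE is the change divided by the root of F. Totals of 43542742 to 65374488 counts leave members at a few counts imprecise. Exon lengths are GENCODE M21 unions, and for Pou3f3 and Lmx1b the deposited coordinates differ from those of that annotation.

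The labels give a batch number to 1 library of each group. Deviations from group means correlated at 0.88, 0.88, 0.87 and 0.87 within batches 1, 3, 4 and 6, against at most 0.46 across batches. Deviations from a mean of 4 libraries sum to 0, which lowers the correlations across batches, so this contrast is partly built in. No library was a duplicate (chi-square over degrees of freedom at least 55.5 in 12 pairs of 1 group).

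Members and lists were chosen with earlier results of these data known. Named members were the 10 highest and 10 lowest past the threshold at 1 CPM or more, the others past it, the most abundant of each class and, outside the list, 3 genes each way. Not every gene tested is reported here by name. Further names were picked with their values known. Alternatives used RLE or upper-quartile factors, other filters, DESeq2 1.42.0, limma-voom 3.58.1, no block and each batch left out. The fit was tested on simulated data.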

Additional observations from a re-analysis of the deposited data

Results flagged for a closer look

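In 76 groups of 4 libraries (38 homeobox genes in cKO and in control), 2 held a library far from the others by Dixon's criterion, which chance gives in about 1 of 20 groups. Onecut2 was at 4.68 CPM in control replicate 3, against 2.94 to 3.20 CPM in the other control libraries. Pou3f3 was lowest in replicate 4 of both groups, at 213 CPM in cKO and 224 CPM in control, and the value in control was set apart from the 303 to 315 CPM of the other control libraries.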

How the results depend on the processing

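Without the replicate block, edgeR called 0 members higher and 0 lower, with 4 at an unadjusted p under 0.05, and 1 gene higher and 2 lower in all, although all 12 members called with the block kept their sign. With each replicate left out, the members that fell numbered 5 to 10, the 1 that rose stayed 1, and over all genes 1127 to 1702 rose and 910 to 1730 fell. Called members numbered 12 with RLE factors, with no filter on low counts, with at least 1 CPM in 4 libraries, with limma-voom and with the ribosomal RNA gene left out of library sizes (a setting chosen after seeing the data), and 11 with upper-quartile factors and DESeq2, which both lost Meis2. The change of Zfhx2 turned to -0.0023 with RLE factors, -0.0045 with DESeq2 and, with each replicate left out, ran from -0.12 (without replicate 4) to 0.082. The median over all genes stayed within 0.01 of 0 on the log2 scale in every setting run. Depth limits members under 1 CPM, of which 9 were tested and 0 called by edgeR, with 1 (Pou4f1) at an unadjusted p under 0.05. The causes of these shifts were not tested.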
